A study of Homo sapiens with 6 samples.

Results

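The genes described here carry the symbols of the human translation initiation factors other than the cap-binding and scaffold factors eIF4E and eIF4G. They were taken from the count table by symbol, as every EIF1 to EIF6 name except those starting with EIF4E, EIF4G or EIF2AK, which are cap-binding factors, scaffolds and eIF2 kinases. Of 146 such symbols, 28 belonged to those excluded names and 72 of the rest ended in P and digits, as pseudogenes do. A further 6 had under 20 counts over the 6 libraries, 5 of them listed at 0 in all 6. The other 40 genes, out of 65746 symbols in the table, make up the set, and all 40 passed the filter on low counts. They comprise 14 genes of eIF3, 5 of eIF2B, 3 of eIF2, 5 of eIF4A, eIF4B and eIF4H, 3 of eIF1 and eIF1A, 3 of eIF5A, 2 of eIF5 and eIF5B, EIF2A, EIF2D, EIF6, and 2 further symbols, EIF1AD and EIF1B-AS1. These 2 are in the set by name alone, EIF1AD encoding a nuclear protein with an eIF1A domain and EIF1B-AS1 being a non-coding RNA. All 40 are called initiation factor genes below.

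RNA sequencing was done on SU-DHL-8, an established cell line of human diffuse large B-cell lymphoma, described by the labels as wild type and grown in RPMI with fetal bovine serum. The cells received 100 nM erianin or the solvent DMSO alone for 24 h, with 3 libraries in each group. Erianin is a bibenzyl from Dendrobium orchids described as a tubulin ligand. Nothing in the labels says whether the 3 replicates came from separate cultures, so every p-value reflects variation among libraries that may be technical in origin.

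In translation initiation, eIF2 carries the initiator methionyl-tRNA in its GTP-bound form to the small ribosomal subunit, where eIF1, eIF1A, eIF3 and eIF5 assemble with it. The loaded subunit joins the messenger RNA near its cap, the helicase eIF4A with eIF4B or eIF4H unwinds the leader, and eIF1 and eIF1A watch over the choice of start codon. Start recognition leads to GTP hydrolysis by eIF2 under eIF5, joining of the large subunit by eIF5B, and recharging of eIF2 by the exchange factor eIF2B, the step that stress kinases block by phosphorylating eIF2 alpha. Many initiation factor genes are known targets of MYC.

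Total counts were 32844464 to 35307027 with erianin and 30956443 to 35588728 with DMSO, and a count of 3 equalled 0.084 to 0.097 CPM (counts scaled to a common library size), which covers counting error only. That floor and the marker levels in the next sentences are scaled by total counts, and all other CPM by the trimmed mean of M values (TMM). DMSO replicate 1 stood apart. Set against DMSO replicates 2 and 3 it had a biological coefficient of variation of 0.292 and 0.296, compared with 0.0336 to 0.0815 among erianin libraries and 0.0380 between DMSO replicates 2 and 3. Counts of called initiation factor genes are therefore given with and without it. The B-cell markers MS4A1, CD79A, CD79B, PAX5, CD22 and CD74 were all detected, and their summed level was 5779 to 6165 CPM with erianin and 7419 to 7796 CPM with DMSO. Within that list CD79A (585 to 659 CPM with erianin, 427 to 442 CPM with DMSO) and CD22 (71.9 to 74.9 CPM with erianin, 57.9 to 62.6 CPM with DMSO) went the other way. The summed T-cell markers, nearly all TRAC, reached 1.42 to 2.28 CPM with erianin and 2.84 to 3.68 CPM with DMSO, and CD3G and CD2 were at 0. Myeloid markers, mostly LYZ, summed to 10.3 to 11.6 CPM with erianin and 4.49 to 7.31 CPM with DMSO, and their part in the results was not tested. Erythroid and epithelial or fibroblast markers stayed at or below 0.340 CPM in every library, with HBA2, HBB and EPCAM at 0.

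Erianin was followed by a mixed picture across the 40 genes. In the edgeR fit with all 6 libraries, 3 genes rose, namely EIF4A1, EIF5A2 and EIF5, and 7 fell, namely EIF2B2, EIF1B, EIF3F, EIF3C, EIF4B, EIF3G and EIF4A2. The threshold was a Benjamini-Hochberg adjusted p of 0.05 over 11550 genes tested. The 3 risers were 7.5% of the set, against 11.8% of all genes tested, and the 7 that fell were 17.5%, against 12.3%. The called share in either direction was 25.0% in the set and 24.2% over all genes, so the set as a whole was called at about the background rate. The median log2 fold change was -0.12 over the 40 genes and -0.00 over all genes tested. These are whole-culture measurements, in which fewer cells of a type and less RNA per cell cannot be told apart.

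Without DMSO replicate 1, 9 of the 40 genes rose and 18 fell, 22.5% and 45.0% of the set, while 28.2% of all genes tested rose and 27.7% fell (55.9% in all). The 10 genes called with all 6 libraries were all called in the same direction, and 17 others were added. In that fit the log2 fold change was -0.66 for EIF1B, -0.60 for EIF3F, -0.55 for EIF3C, -0.44 for EIF3G, -0.44 for EIF4B, -0.33 for EIF4A2, 0.91 for EIF4A1 and 0.77 for EIF5A2. The 6 added risers were EIF2S1, EIF3B, EIF3H, EIF3J, EIF5B and EIF5A. The 11 added genes that fell were EIF1, EIF2S2, EIF2B1, EIF2B4, EIF2B5, EIF3D, EIF3CL, EIF3L, EIF4A3, EIF4H and EIF6. Erianin and DMSO libraries did not overlap for 7 genes that were higher and 14 that were lower with erianin, beside 23.6% and 23.1% of all genes tested (46.8% in all). Without DMSO replicate 1 these were 11 higher and 21 lower, beside 34.6% and 34.9% (69.5% in all). The remaining 13 genes were called in neither fit.

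**Figure D1:**
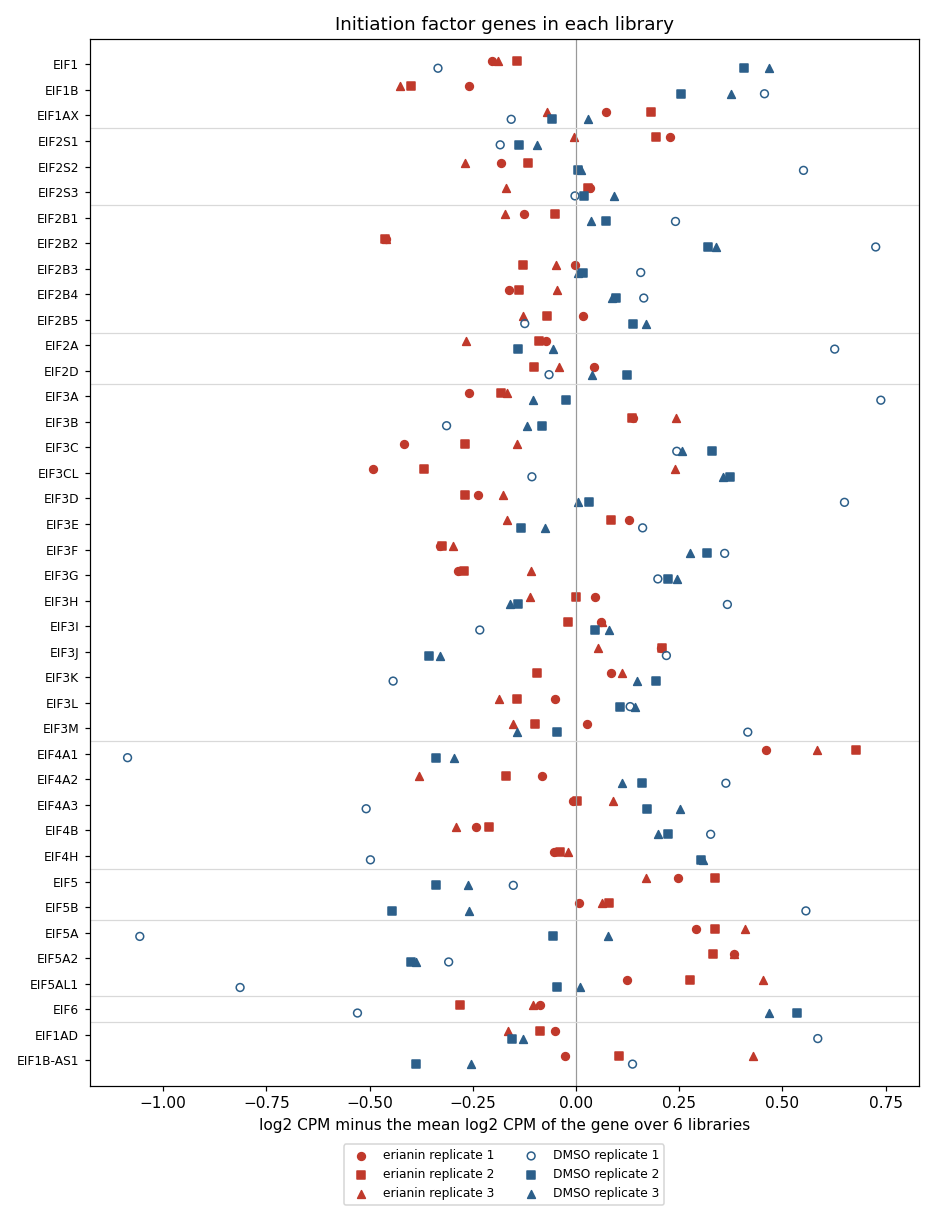
Level of each of the 40 genes in each library, as log2 CPM minus the gene's mean log2 CPM over the 6 libraries (x axis); genes are grouped by factor down the page, red marks are erianin and blue marks DMSO libraries, and the open circle is DMSO replicate 1. EIF1B, EIF2B2, EIF3F and EIF4B show erianin and DMSO libraries on opposite sides of 0, while the open circle lies away from the other blue marks in EIF5A, EIF6, EIF5B and EIF3A.

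**Figure D2:**
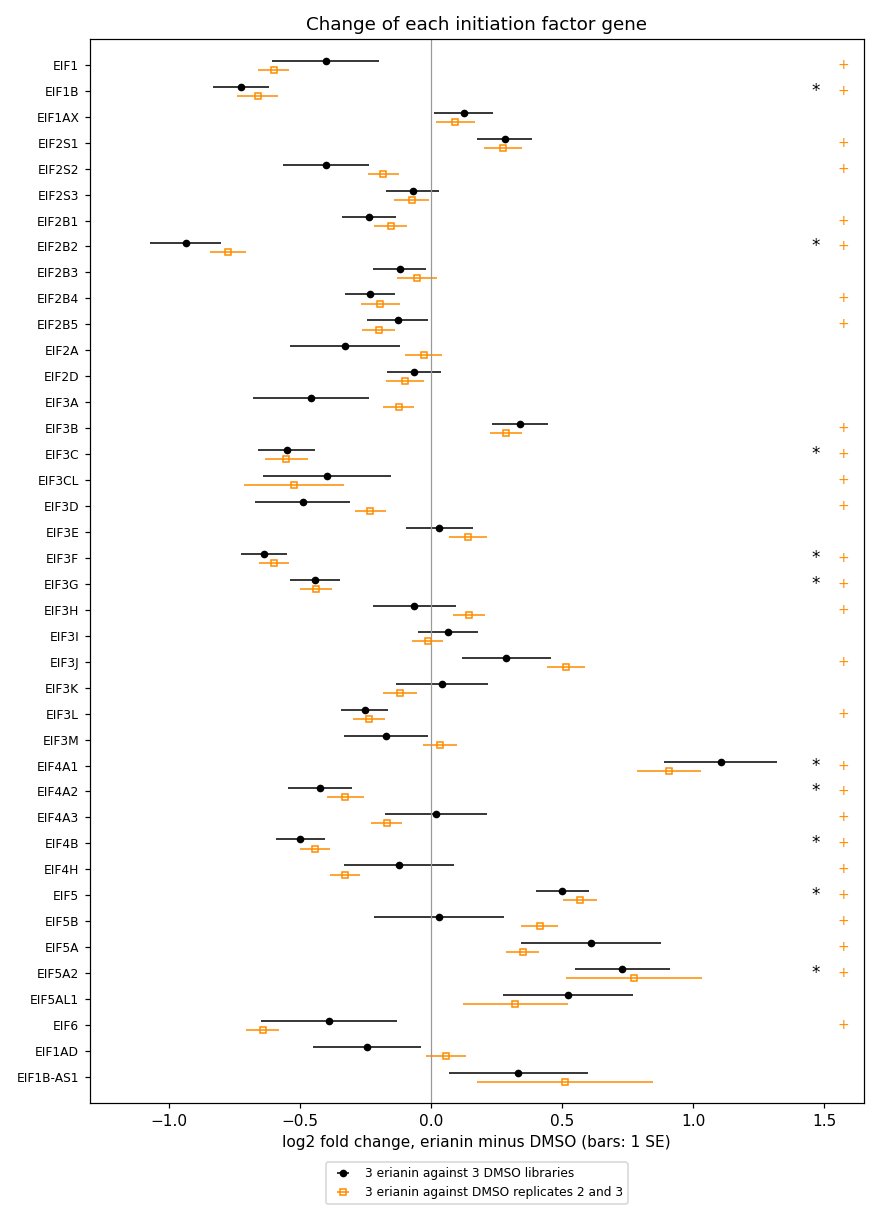
Log2 fold change of each gene, erianin minus DMSO (x axis, bars 1 SE), from the edgeR fit of all 6 libraries (black circles) and of the 5 libraries without DMSO replicate 1 (orange squares). Asterisks mark the 10 genes called with all 6 libraries, and plus signs the 9 higher and 18 lower without DMSO replicate 1, at an adjusted p under 0.05.

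The regions around the start sites of 8 of the called genes are shown as examples with and without the motifs counted below. The region of EIF3C, which also fell, is left out. Its promoter held no E-box, ETS motif or pyrimidine start. RefSeq promoters on GRCh38.p14 were matched by symbol for 33 of the 40 genes, each taken as 250 bases before to 50 after the annotated start. Each line below gives 70 bases before and 30 from the start onward, 5′ to 3′ on the gene's strand. Capitals mark an E-box (CACGTG, the motif of MYC and related factors), an ETS motif (CCGGAAG), or a run of pyrimidines that begins with C exactly at the annotated start, as in the terminal oligopyrimidine messages of the translation machinery.
EIF1B, which fell (chr3:40309637-40309736, plus strand): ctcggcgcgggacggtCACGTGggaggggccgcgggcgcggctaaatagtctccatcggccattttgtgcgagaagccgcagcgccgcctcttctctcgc
EIF2B2, which fell (chr14:75002851-75002950, plus strand): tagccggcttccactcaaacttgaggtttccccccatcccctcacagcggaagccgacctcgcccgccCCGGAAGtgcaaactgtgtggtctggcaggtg
EIF3F, which fell (chr11:7987267-7987366, plus strand): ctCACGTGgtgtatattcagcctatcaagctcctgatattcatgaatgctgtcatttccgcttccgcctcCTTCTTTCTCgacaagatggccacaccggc
EIF4B, which fell (chr12:53006386-53006485, plus strand): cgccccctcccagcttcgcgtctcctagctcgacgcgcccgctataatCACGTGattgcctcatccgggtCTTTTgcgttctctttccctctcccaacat
EIF4A2, which fell (chr3:186783507-186783606, plus strand): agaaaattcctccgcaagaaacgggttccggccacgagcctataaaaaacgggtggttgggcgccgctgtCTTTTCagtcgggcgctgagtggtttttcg
EIF4A1, which rose (chr17:7572755-7572854, plus strand): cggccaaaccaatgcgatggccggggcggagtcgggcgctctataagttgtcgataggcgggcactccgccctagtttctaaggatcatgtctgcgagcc
EIF5, which rose, the upstream of its 2 annotated starts (chr14:103334167-103334266, plus strand): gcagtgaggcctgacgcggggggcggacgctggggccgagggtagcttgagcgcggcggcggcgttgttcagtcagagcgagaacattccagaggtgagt
EIF5A2, which rose (chr3:170908608-170908707, minus strand): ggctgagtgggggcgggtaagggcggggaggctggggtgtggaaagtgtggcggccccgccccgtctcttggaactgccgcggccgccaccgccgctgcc

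A pyrimidine run of at least 5 bases starting with C at the annotated start was found in 9 of the 33 promoters (27.3%), against 7.58% of 9113 tested genes with a promoter. The 9 were EIF2A, EIF2D, EIF2S3, EIF3D, EIF3F, EIF3K, EIF3M, EIF4A2 and EIF4B. Of the 6 genes that fell and had a promoter, 3 began this way (EIF3F, EIF4B and EIF4A2), and of the 3 that rose, none did (0 of 3). The start was also found in 5 of the 11 genes with a promoter that were called in neither fit (45.5%), and in 4 of 14 (28.6%) and 0 of 8 of those that fell and rose without DMSO replicate 1. The E-box, searched on both strands over 300 bases, was also in 9 of 33 (27.3%), against 12.8% of tested genes. It was found in EIF1B, EIF3F and EIF4B among genes that fell, and in EIF5A2 among genes that rose, where its 2 copies lie upstream of the bases shown. Of the 11 genes with a promoter called in neither fit, 3 held it (27.3%), namely EIF1B-AS1, EIF2B3 and EIF3K. Without DMSO replicate 1, it was in 5 of 14 genes that fell (35.7%) and 1 of 8 that rose (12.5%). EIF1B and EIF1B-AS1 overlap by 15 bases on opposite strands, so their windows may hold the same E-box. The ETS motif was in 27.3% of the 33 promoters and 22.8% of tested genes. No promoter of the 33 held TGACGTCA (CRE, 3.72% of tested genes), the NRF1 palindrome (2.85%), TGATGNAAN (ATF4, 2.74%) or the heat shock element (0.538%), each searched on both strands. A match describes the letters in these windows and shows no binding, and none of these shares was tested. The motifs marked in the printed windows do not overlap.

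Among the small factors that guard start-codon choice, EIF1B fell with erianin, and EIF1 passed the threshold when DMSO replicate 1 was left out. EIF1B (chr3:40309684-40312424, GRCh38), a close paralog of EIF1, had 39.0, 35.3 and 34.7 CPM in erianin replicates 1, 2 and 3, against 64.0, 55.7 and 60.5 CPM in DMSO replicates 1, 2 and 3. Every erianin library lay below every DMSO library. The log2 fold change was -0.72 ± 0.11 (SE, adjusted p = 0.0052). The call held with each library left out in turn, at adjusted p-values up to 0.046. EIF1, the start-codon fidelity factor itself, had 588, 612 and 594 CPM with erianin and 537, 897 and 935 CPM with DMSO. Its erianin libraries lay below DMSO replicates 2 and 3 but above DMSO replicate 1. The log2 fold change of EIF1 was -0.40 ± 0.20 (adjusted p = 0.19) with all libraries and -0.60 ± 0.06 (adjusted p = 5.0e-09) without DMSO replicate 1. EIF1AX, which encodes eIF1A, gave 0.12 ± 0.11 (adjusted p = 0.46), with overlapping groups. The log2 ratio of EIF1B to EIF1 averaged -4.04 ± 0.11 with erianin and -3.68 ± 0.53 with DMSO (SD, n = 3 each). The difference of -0.37 had a two-sided exact permutation p of 0.3, or 0.5 after Benjamini-Hochberg adjustment over the 5 paralog pairs compared. It was -0.06 without DMSO replicate 1.

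None of the 3 eIF2 subunits passed the threshold with all 6 libraries. At an unadjusted p under 0.05, edgeR counted 1 higher and 1 lower, and DESeq2 called 1 higher at its adjusted 0.05. EIF2S1, the alpha subunit that carries the regulatory phosphorylation site, had 126, 123 and 107 CPM with erianin and 94.5, 97.5 and 100.5 CPM with DMSO. All 3 erianin libraries were above all 3 DMSO libraries, with 0.28 ± 0.11 on the log2 scale (adjusted p = 0.092), and 0.28 ± 0.07 (adjusted p = 0.0019) without DMSO replicate 1. EIF2S2, the beta subunit, which binds eIF5 and eIF2B, had 338, 353 and 318 CPM with erianin and 561, 384 and 386 CPM with DMSO. The groups did not overlap, although DMSO replicate 1 lay far above the other DMSO libraries. Its log2 fold change was -0.40 ± 0.16 (adjusted p = 0.12) with all libraries and -0.18 ± 0.06 (adjusted p = 0.013) without that replicate. EIF2S3, the gamma subunit that holds GTP and the initiator tRNA, overlapped between groups at -0.07 ± 0.10 (adjusted p = 0.66).

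The exchange factor eIF2B contained the gene with the largest fall of the 40. EIF2B2 (beta, in the regulatory part of the complex; chr14:75002911-75012366, GRCh38) had 45.0, 44.9 and 45.0 CPM with erianin, against 102, 77.2 and 78.3 CPM with DMSO. Erianin libraries were nearly identical to each other and all below the DMSO libraries. The log2 fold change was -0.93 ± 0.13 (adjusted p = 0.0047), and -0.77 ± 0.07 without DMSO replicate 1 (adjusted p = 1.2e-09). The call held with every library left out in turn, at adjusted p-values up to 0.041. The other 4 subunits had log2 fold changes of -0.23 for EIF2B1 (alpha, regulatory), -0.12 for EIF2B3 (gamma), -0.23 for EIF2B4 (delta, regulatory) and -0.13 for EIF2B5 (epsilon, the catalytic subunit), none past the threshold. Without DMSO replicate 1, EIF2B1 (-0.15 ± 0.06, adjusted p = 0.042), EIF2B4 (-0.19 ± 0.07, adjusted p = 0.028) and EIF2B5 (-0.20 ± 0.06, adjusted p = 0.0098) also fell. Annotated opposite-strand transcripts overlap 1098 and 185 bases of EIF2B2's 5446 exonic bases, and whether counting used strand is not given in the sources used here.

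EIF2A and EIF2D, which can bring a tRNA to the ribosome without eIF2, did not pass the threshold with or without DMSO replicate 1. EIF2A had 85.3, 84.2 and 74.6 CPM with erianin and 138, 81.4 and 86.3 CPM with DMSO, the highest value being that of DMSO replicate 1. EIF2D gave -0.07 ± 0.10 on the log2 scale (adjusted p = 0.68). DESeq2 called neither gene.

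Of the 14 genes of the scaffold eIF3, 3 fell and 0 rose with all 6 libraries, with a median log2 fold change of -0.21. That is 21.4% called in either direction, beside 24.2% of all genes tested. Without DMSO replicate 1, 3 rose and 6 fell, 64.3% in either direction beside 55.9% of all genes tested. With all 6 libraries, edgeR counted 1 gene higher at an unadjusted p under 0.05, and DESeq2 called 1 higher. EIF3F, a subunit with an MPN domain, had 318, 319 and 325 CPM with erianin, against 513, 498 and 484 CPM with DMSO. The groups were tight and well apart, giving -0.64 ± 0.09 on the log2 scale (adjusted p = 0.0043). That call held with each library left out, at adjusted p-values up to 0.044. EIF3G, an RNA-binding subunit on the scanning side of the complex, had 241, 243 and 272 CPM with erianin, against 337, 342 and 348 CPM with DMSO. All erianin libraries were below all DMSO libraries, with -0.44 ± 0.10 (adjusted p = 0.017). The call for EIF3G was lost without erianin replicate 1 (adjusted p = 0.11), erianin replicate 2 (0.11), DMSO replicate 2 (0.058) or DMSO replicate 3 (0.054).

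EIF3C, a core subunit that in yeast contacts eIF1 and eIF5, also fell. Its counts gave 34.8, 38.6 and 42.1 CPM with erianin, against 55.1, 58.4 and 55.6 CPM with DMSO, and the groups did not overlap. The log2 fold change was -0.55 ± 0.11 (adjusted p = 0.013), which missed the threshold without erianin replicate 1 (adjusted p = 0.082) or 2 (0.078). EIF3C has a near-identical copy, EIF3CL, so reads could be split between them or dropped, and these 2 levels are uncertain. EIF3CL itself had 2.89, 3.15 and 4.80 CPM with erianin and 3.78, 5.27 and 5.21 CPM with DMSO, overlapping, at -0.40 ± 0.24 (adjusted p = 0.28). The log2 ratio of EIF3CL to EIF3C averaged -3.45 ± 0.27 with erianin and -3.58 ± 0.25 with DMSO (SD, n = 3 each; two-sided exact permutation p = 0.6, adjusted 0.75), and their difference was 0.14, or -0.0020 without DMSO replicate 1.

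Among the other eIF3 genes, EIF3B, a core subunit with a beta-propeller, did not pass the threshold with all libraries. It had 936, 934 and 1007 CPM with erianin and 684, 804 and 783 CPM with DMSO, with no overlap. Its log2 fold change was 0.34 ± 0.11 (adjusted p = 0.055), against 0.29 ± 0.06 (adjusted p = 2.8e-04) without DMSO replicate 1. EIF3J, a loosely attached subunit near the mRNA channel, had 78.4, 78.6 and 70.6 CPM with erianin and 79.1, 53.1 and 54.1 CPM with DMSO. Only DMSO replicate 1 reached the erianin libraries, and without it the log2 fold change was 0.52 ± 0.07 (adjusted p = 2.0e-06), against 0.29 ± 0.17 (adjusted p = 0.26) with it. EIF3A, the largest core subunit, had 489, 516 and 521 CPM with erianin and 976, 575 and 544 CPM with DMSO. The groups did not overlap, with DMSO replicate 1 far above all others, and the log2 fold change was -0.46 (adjusted p = 0.17) with that library and -0.12 ± 0.06 (adjusted p = 0.084) without it. EIF3D, a subunit with cap-binding activity, had 556, 544 and 579.6 CPM with erianin and 1029, 670.3 and 657 CPM with DMSO, again with DMSO replicate 1 far above the rest. Its log2 fold change was -0.49 ± 0.18 (adjusted p = 0.092) with all libraries and -0.23 ± 0.06 (adjusted p = 0.0017) without DMSO replicate 1. EIF3L, a peripheral subunit that shares 1767 of 4296 exonic bases with a transcript on its own strand, gave -0.25 ± 0.09 (adjusted p = 0.083) and, without DMSO replicate 1, -0.23 ± 0.06 (adjusted p = 0.0018).

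EIF3E, EIF3H, EIF3I, EIF3K and EIF3M, subunits of the PCI and MPN core or of the b, g and i module, had log2 fold changes between -0.17 (EIF3M) and 0.06 (EIF3I) with all libraries, none past the threshold. Without DMSO replicate 1, EIF3H reached 0.15 ± 0.06 (adjusted p = 0.046) and the other 4 stayed between -0.12 (EIF3K) and 0.14 (EIF3E). On the deposited per-length scale (TPM), the 12 eIF3 genes other than EIF3C and EIF3CL were unequal in level within every library. The highest, EIF3I, was 5.33, 5.03 and 5.93 times the lowest, EIF3J, in erianin replicates 1, 2 and 3. In DMSO replicates 1, 2 and 3 the highest was EIF3D, at 8.55, 8.30 and 7.99 times EIF3J. With EIF3C included as the lowest, the ratios were 38.4, 32.8 and 31.8 with erianin and 39.3, 24.1 and 24.9 with DMSO. These overlapped, with DMSO replicate 1 the widest and DMSO replicates 2 and 3 the narrowest. Which group had the wider range of subunit levels thus depended on EIF3C, whose level is uncertain, and on DMSO replicate 1. Neither comparison was tested.

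In the helicase group, EIF4A1 rose while its paralog EIF4A2 fell. EIF4A1 (chr17:7572706-7579005, GRCh38), the main cytoplasmic RNA helicase of initiation, had 11.4, 13.3 and 12.4 CPM with erianin, against 3.91, 6.56 and 6.77 CPM with DMSO, which rest on 418, 460 and 435 counts with erianin and 119, 213 and 230 counts with DMSO. Erianin libraries were all above DMSO libraries, and DMSO replicate 1 was the lowest. The log2 fold change was 1.10 ± 0.22 (adjusted p = 0.012), the largest rise of the 40, and it missed the threshold without erianin replicate 2 (adjusted p = 0.062) or 3 (0.057). On the per-length scale EIF4A1 averaged 2.16 TPM with erianin and 0.882 TPM with DMSO, against 47.1 and 52.5 TPM for EIF4A2 in the same groups. The DMSO means include DMSO replicate 1, whose TPM column summed low. That library had 0.423 TPM for EIF4A1 and 43.4 TPM for EIF4A2, the lowest DMSO values of both genes. For EIF4A1, 2583 of its 5316 exonic bases are shared on the same strand with other annotated transcripts, so its counts may cover only part of the gene's reads. EIF4A2 (chr3:186783205-186789900, GRCh38) had 291, 274 and 236 CPM with erianin and 396, 344 and 332 CPM with DMSO, without overlap. Its fall of -0.42 ± 0.12 (adjusted p = 0.043) was the call nearest to the threshold and was lost without any library except DMSO replicate 1, at adjusted p-values up to 0.15.

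The ratio of these paralogs within a library does not depend on library scaling, but it does depend on how the reads of each gene were counted. Both ratios below have EIF4A1 as denominator, at 119 to 460 counts a library, so they are not independent of each other. EIF4A2 also shares 643 of its 6133 exonic bases on the same strand with other annotated transcripts. The log2 ratio of EIF4A2 to EIF4A1 was 4.67, 4.36 and 4.25 with erianin, against 6.66, 5.71 and 5.62 with DMSO. All erianin ratios were below all DMSO ratios, a difference of -1.57, or 0.337-fold (two-sided exact permutation p = 0.1, adjusted 0.25 over 5 pairs, with 0.1 the smallest that 3 against 3 libraries can give). The difference was -1.24 without DMSO replicate 1. For EIF4A3, the helicase of the exon junction complex, the log2 ratio to EIF4A1 was 5.54, 5.33 and 5.52 with erianin and 6.59, 6.52 and 6.56 with DMSO. This difference was -1.09, or 0.470-fold, with the same p-values, and -1.07 without DMSO replicate 1. EIF4A3 on its own had 531, 535 and 569 CPM with erianin and 376, 602 and 636 CPM with DMSO, and gave 0.02 ± 0.19 (adjusted p = 0.95) with all libraries and -0.17 ± 0.06 (adjusted p = 0.020) without DMSO replicate 1.

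**Figure D3:**
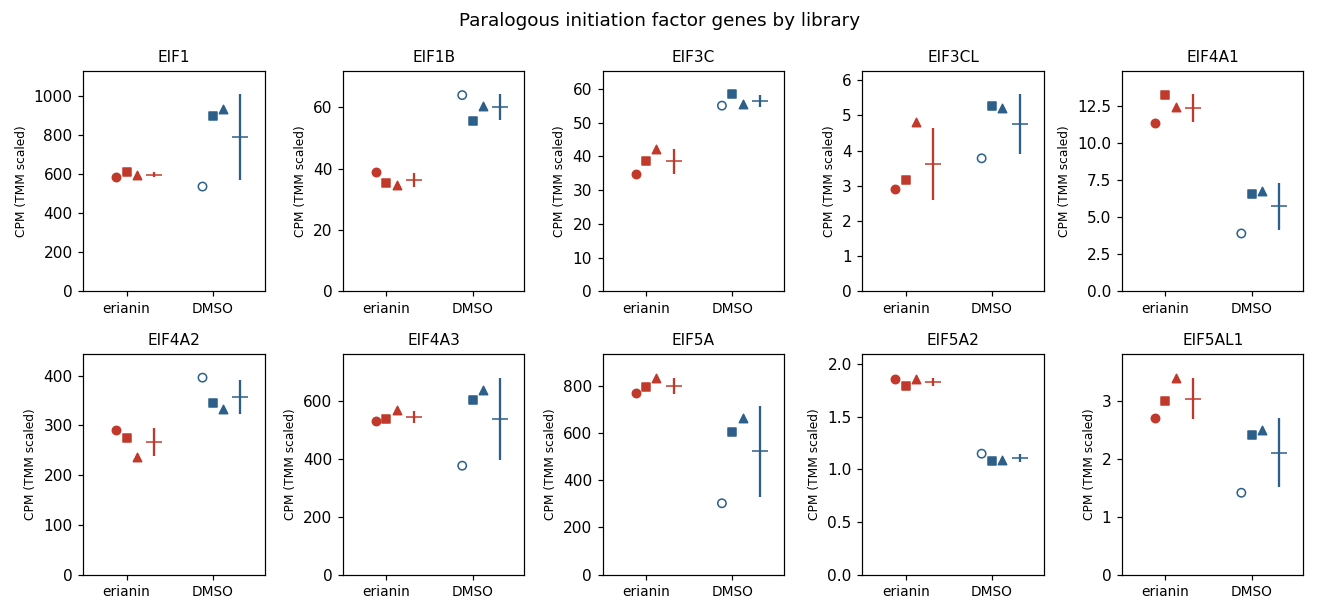
CPM (TMM scaled, each y axis from 0) of paralogous genes in erianin (red, left) and DMSO (blue, right) libraries; circles, squares and triangles are replicates 1, 2 and 3, the open circle is DMSO replicate 1, and the bar beside each group is the mean with 1 SD. EIF4A1 was higher and EIF4A2 lower in every erianin library, while EIF5A2 was at 1.79 to 1.86 CPM with erianin and 1.08 to 1.15 CPM with DMSO.

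The helicase cofactors EIF4B and EIF4H were both abundant. EIF4B, which stimulates eIF4A and whose promoter above holds both an E-box and a pyrimidine start, had 561, 574 and 543 CPM with erianin, against 833, 775 and 762 CPM with DMSO. Every erianin library was below every DMSO library, with -0.50 ± 0.09 on the log2 scale (adjusted p = 0.011). That call was lost without erianin replicate 1 (adjusted p = 0.074), 2 (0.070) or 3 (0.051). EIF4H, a smaller relative of EIF4B, had 1171, 1181 and 1197 CPM with erianin and 859.6, 1498 and 1503 CPM with DMSO. Its erianin libraries lay above DMSO replicate 1 and below DMSO replicates 2 and 3, giving -0.12 ± 0.21 (adjusted p = 0.71) with all and -0.33 ± 0.06 (adjusted p = 4.1e-05) without DMSO replicate 1.

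Of the factors of the late steps, EIF5 rose, and the value of EIF5B differed with and without DMSO replicate 1. EIF5 (chr14:103333544-103345025, GRCh38), the GTPase activator of eIF2, had 240.3, 256 and 228 CPM with erianin, against 182, 160.2 and 169 CPM with DMSO. There was no overlap, and the log2 fold change was 0.50 ± 0.10 (adjusted p = 0.014), or 0.57 ± 0.06 (adjusted p = 5.7e-08) without DMSO replicate 1. The call for EIF5 was lost without erianin replicate 1 (adjusted p = 0.071), erianin replicate 2 (0.080) or DMSO replicate 2 (0.056). EIF5B, the GTPase that joins the large subunit, had 105, 111 and 109 CPM with erianin and 154, 76.9 and 87.4 CPM with DMSO. Its erianin values lay above DMSO replicates 2 and 3 and below DMSO replicate 1, so that the log2 fold change was 0.03 ± 0.25 (adjusted p = 0.94) with that library and 0.41 ± 0.07 (adjusted p = 1.7e-05) without it.

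Among the eIF5A genes, EIF5A2 was called higher. EIF5A, the hypusine-bearing factor now known mainly for elongation and termination, had 769, 794 and 835 CPM with erianin, against 302, 605 and 663 CPM with DMSO. All erianin libraries were above all DMSO libraries, but DMSO replicate 1 lay far below the other two, and the log2 fold change of 0.61 ± 0.27 (adjusted p = 0.14) did not pass. Without that library the log2 fold change of EIF5A was 0.35 ± 0.06 (adjusted p = 4.2e-05). EIF5A2, a paralog amplified in some cancers, had 1.86, 1.79 and 1.86 CPM with erianin and 1.15, 1.08 and 1.09 CPM with DMSO, with no overlap. Its log2 fold change was 0.73 ± 0.18 (adjusted p = 0.027), a call lost without any library except DMSO replicate 1, at adjusted p-values up to 0.10. The log2 ratio of EIF5A2 to EIF5A was -8.69, -8.79 and -8.81 with erianin and -8.04, -9.13 and -9.25 with DMSO. The difference was 0.04 (two-sided exact permutation p = 1.0, adjusted 1.0), with DMSO replicate 1 above and the other DMSO libraries below all erianin libraries, and 0.42 without that replicate. EIF5AL1, a near copy of EIF5A whose reads could be exchanged with it, had 2.704, 3.005 and 3.401 CPM with erianin and 1.41, 2.40 and 2.50 CPM with DMSO, at 0.52 ± 0.25 (adjusted p = 0.17).

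EIF6, which keeps the large subunit from joining too early, had 344, 301 and 339.9 CPM with erianin and 253, 529.6 and 505 CPM with DMSO. As for EIF4H, erianin values exceeded DMSO replicate 1 and were below both other DMSO libraries. The log2 fold change was -0.39 ± 0.26 (adjusted p = 0.32) with all libraries and -0.64 ± 0.06 (adjusted p = 7.0e-09) without DMSO replicate 1. Only EIF2B2 and EIF1B had a lower log2 fold change among the 40 genes in that fit. EIF6 shares 284 of its 1631 exonic bases on its own strand with another annotated transcript. EIF1AD, a nuclear protein with an eIF1A domain, gave -0.24 ± 0.21 (adjusted p = 0.43). EIF1B-AS1, a non-coding RNA that overlaps 15 bases of EIF1B on the opposite strand, gave 0.33 ± 0.26 (adjusted p = 0.40) at or below 1.09 CPM in every library.

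DMSO replicate 1 touched most of these values. Its level lay outside the range of the other 5 libraries for 30 of the 40 genes, and it differed at least 1.3-fold from the mean of DMSO replicates 2 and 3 for 20, being higher in 11 and lower in 9. It was lowest relative to them for EIF5A (0.477-fold), EIF6 (0.489-fold) and EIF4H (0.573-fold), and highest for EIF5B (1.87-fold), EIF3A (1.74-fold) and EIF1AD (1.66-fold). Across the 40 genes this ratio on the log2 scale fell with the GC content of the annotated transcripts, with Pearson's r = -0.47 and Spearman's rho = -0.46, a description over genes of 1 library that are not independent replicates. In a fit with GC content and length offsets, chosen after the data were seen, 5 of the 40 genes rose and 9 fell, beside 17.2% and 18.0% of all genes tested (35.2% in either direction). All 10 calls were kept, and EIF2S2 (-0.38, adjusted p = 0.013), EIF3A (-0.45, 0.032), EIF3B (0.39, 0.0061) and EIF3J (0.37, 0.012) were added. The part of GC content in the other results was not tested.

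**Figure D4:**
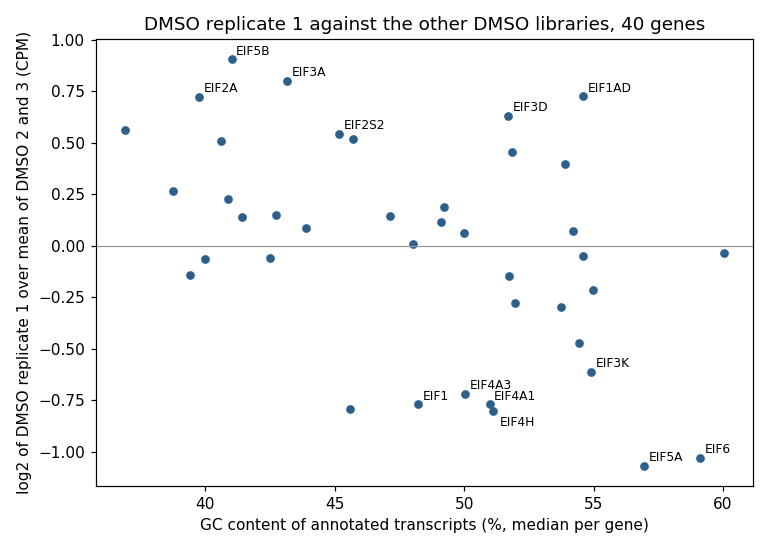
Log2 ratio of DMSO replicate 1 to the mean of DMSO replicates 2 and 3 in CPM (y axis) against the median GC content of the annotated transcripts of each gene in percent (x axis), for the 40 genes, 1 point a gene. EIF5A is the lowest point, at -1.07, and EIF5B the highest, at 0.91.

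As summed levels, the 40 genes together had 10257, 10223 and 10238 CPM with erianin and 10996, 11533 and 11590 CPM with DMSO. Every erianin library was below every DMSO library. The eIF2B genes summed to 385, 380.0 and 371 CPM with erianin and to 480.0, 455 and 456 CPM with DMSO, again without overlap. The eIF3 genes summed to 4264, 4188 and 4301 CPM with erianin and to 5353, 4566 and 4489 CPM with DMSO, also without overlap. The eIF4A, eIF4B and eIF4H genes summed to 2566, 2577 and 2558 CPM with erianin and to 2468, 3226 and 3240.3 CPM with DMSO, overlapping through DMSO replicate 1. The eIF5A genes summed to 774, 799 and 841 CPM with erianin and to 305, 608 and 667 CPM with DMSO, and EIF5 with EIF5B to 345, 366 and 337 CPM with erianin and to 336, 237 and 256 CPM with DMSO, both higher in every erianin library. No test was made on these sums, and they rest on the TMM scaling. TMM factors were 1.03 to 1.05 with erianin and 0.949 to 0.984 with DMSO. Sums scaled by total counts alone are not given, so the lack of overlap, above all for eIF3, may depend on the scaling. On the per-length TPM scale, the most abundant of the 40 genes were EIF4H, at a mean of 867 TPM with erianin and 831 TPM with DMSO, and EIF2S2, at 664 and 714 TPM in the same groups. The least abundant was EIF1B-AS1, at 0.674 TPM with erianin and 0.438 TPM with DMSO. These DMSO means include DMSO replicate 1, whose TPM column reached 39.2% of the nominal sum, so they do not compare the groups. EIF4H had 391 TPM in DMSO replicate 1, against 1049 and 1051 TPM in DMSO replicates 2 and 3.

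Genes that work with these factors were read from the same edgeR fit. Beside the counts in each list below, 11.8% of all genes tested rose and 12.3% fell with all 6 libraries. Without DMSO replicate 1 these shares were 28.2% and 27.7%, and no list was tested as a set. Of 16 initiation cofactors, 4 rose and 2 fell, with a median log2 fold change of 0.26, and 10 rose and 3 fell without DMSO replicate 1. The 3 of smallest p were DHX9, an RNA helicase (0.81, adjusted p = 0.0046), BZW1, an eIF5 mimic (0.73, adjusted p = 0.0055), and BZW2, its relative (0.57, adjusted p = 0.0073). PDCD4, an inhibitor of eIF4A, fell (-0.83, adjusted p = 0.011), as did DHPS, which makes the hypusine precursor on eIF5A (-0.73, adjusted p = 0.030). CDC123, an assembly factor of eIF2, rose (0.44, adjusted p = 0.022); PDCD4, DHPS and CDC123 are named beyond the rule after their values were seen. In the cap-complex list, 3 of 14 rose and 1 fell (5 and 2 without DMSO replicate 1), led by the eIF4E kinase MKNK2 (2.62, adjusted p = 2.1e-04). MKNK2 had 495 ± 33.0 CPM with erianin and 80.7 ± 8.53 CPM with DMSO (SD, n = 3 each). EIF4G2, an eIF4G relative without the eIF4E site, rose (1.03, adjusted p = 0.010) and EIF4EBP1, the repressor of eIF4E, fell (-0.53, adjusted p = 0.025).

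Of 7 eIF2 kinase and phosphatase genes, DNAJC3, an inhibitor of eIF2 kinases, rose (0.69, adjusted p = 0.0093) and EIF2AK3, the kinase PERK, fell (-0.85, adjusted p = 0.0029). In that list 3 rose and 2 fell without DMSO replicate 1, when 28.2% of all genes tested rose and 27.7% fell. Of 10 targets of the integrated stress response, 1 rose (ATF5, 0.35, adjusted p = 0.041) and 3 fell, namely ASNS, asparagine synthetase (-1.52, adjusted p = 0.0086), SESN2, a stress sensor upstream of mTORC1 (-0.68, adjusted p = 0.022), and TRIB3, a pseudokinase (-0.85, adjusted p = 0.026). ATF4 and DDIT3, the central transcription factors of that response, did not pass, at -0.07 and 0.25 on the log2 scale. In that list 2 rose and 4 fell without DMSO replicate 1, and with the GC content and length offsets 0 rose and 4 fell, so that the rise of ATF5 was lost. Of 13 elongation genes, 4 fell and 0 rose, with a median of -0.27. In the rising direction, edgeR counted 1 at an unadjusted p under 0.05 and DESeq2 called 1. Without DMSO replicate 1, 8 fell and 2 rose, and with the offsets 6 fell and 1 rose. The 3 of smallest p were the GTPases GTPBP2 (-1.02, adjusted p = 0.0014) and GTPBP1 (-0.92, adjusted p = 0.0022), and DPH1, of the diphthamide pathway of eEF2 (-0.48, adjusted p = 0.022). The fourth was the eEF2 kinase EEF2K (-0.39, adjusted p = 0.034). EEF2 (-0.49, adjusted p = 0.060), EEF1B2 (-0.27, 0.091), EEF1A1 (-0.10, 0.64) and EEF1D (0.15, 0.76) did not pass with all 6 libraries. Each of these was called lower without DMSO replicate 1. EEF2K and these factors are named beyond the rule after their values were seen.

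Of 10 termination and recycling genes, ETF1, the release factor eRF1, rose (0.67, adjusted p = 0.0075), as did PELO, which rescues stalled ribosomes (0.71, adjusted p = 0.018). With all 6 libraries none fell (0 by edgeR, 0 at an unadjusted p under 0.05 and 0 by DESeq2), and the median was 0.21. Leaving out DMSO replicate 1 gave 7 that rose and 0 that fell, beside 28.2% and 27.7% of all genes tested. With the GC content and length offsets, however, 4 rose and 1 fell. Of 8 mitochondrial translation genes, MTFMT, which formylates the mitochondrial initiator tRNA, rose (0.59, adjusted p = 0.018) and 0 fell (1 at an unadjusted p under 0.05, 0 by DESeq2). Without DMSO replicate 1, 4 rose and 1 fell, and with the offsets 2 rose and 1 fell. Of 85 genes listed by ribosomal protein symbols, 0 rose and 0 fell by edgeR, with 3 higher and 2 lower at an unadjusted p under 0.05 and 2 in each direction by DESeq2. Their median was 0.00 with all libraries and -0.12 without DMSO replicate 1, when 7 rose (8.24%) and 34 fell (40%), beside 28.2% and 27.7% of all genes tested. The list also takes in like-named paralogs, and RPS27L, RPL7L1 and RPL26L1 were among the 7 that rose. With the offsets 1 gene of this list rose and 84 were not called. The list of aminoacyl-tRNA synthetases was void, since 18 of its 22 entries in the table were listed at 0, and of the 4 tested FARSB fell (-0.38, adjusted p = 0.042). Counting each gene once, 12 of the 165 tested genes in these lists rose and 12 fell with all libraries, 7.27% each, beside 11.8% and 12.3% of all genes tested. Without DMSO replicate 1, 40 rose (24.2%) and 56 fell (33.9%), beside 28.2% and 27.7%. Every gene named above as called in these lists was called in the same direction without that library.

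**Figure D5:**
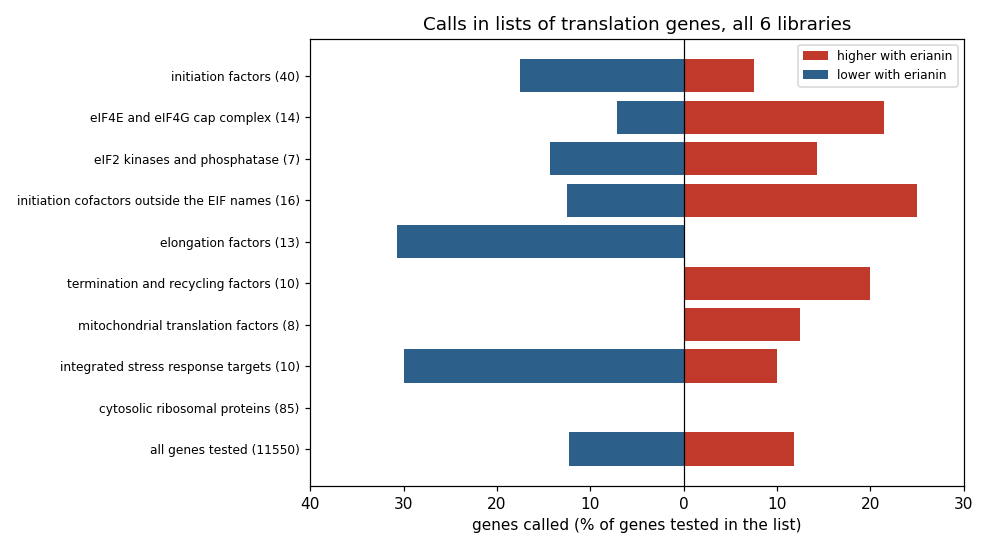
Share of tested genes called at an adjusted p under 0.05 in lists of translation genes (number tested in brackets), in the edgeR fit of all 6 libraries; bars to the right (red) are genes higher with erianin and bars to the left (blue) genes lower, in percent on the x axis. The 40 genes of the initiation factor set stand at 7.5% higher and 17.5% lower, beside 11.8% and 12.3% of all genes tested.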

How the data were processed

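Gene counts and TPM values were taken as the authors deposited them, 1 table each for 6 libraries. Per the submitters' processing notes, fastp 0.23.2, STAR 2.7.10, featureCounts 2.0.1 and StringTie 2.2.1 were used with GRCh38 (hg38); the sources used here do not give the role of each, the annotation, the strand setting or the handling of multi-mapping reads. Deposited TPM columns reached 39.2% of the nominal sum in DMSO replicate 1, against 63.6% to 66.7% elsewhere, so TPM was used only for levels within a library or group and as an alternative. No counted row lacked a name; 61 repeat symbols were left out, and 7 TPM symbols turned into dates were read from the count table.

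The main test was edgeR 4.0.16 (R 4.3.3), quasi-likelihood F test, TMM scaling, filterByExpr (11550 genes), treatment as the single term, with Benjamini-Hochberg adjustment over all genes tested and calls at 0.05. Fold changes are erianin minus DMSO and the SE is the absolute fold change divided by the root of F. Named with all values were called genes of at least 0.5 in log2 fold change, paralog pairs, the 2 most abundant genes by TPM and the 2 calls nearest the threshold; others are named where their call changed without DMSO replicate 1 or to show the range. From each other list up to 3 called genes of smallest p were named. The members and lists were chosen with earlier results of these data known. Some cell type markers are not reported here. Annotation and exonic overlaps came from GENCODE 29, matched by identifier for all 40 genes.

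Alternatives were DESeq2 1.42.0 and its size factors, total counts, no filter, limma-voom (limma 3.58.1), a replicate block, leaving out each library, limma-trend on log2(TPM + 1) and on log2(TPM + 0.1), and, chosen after seeing the data, GC content and length offsets (mgcv 1.9.3). On simulated counts modelled on this comparison in 11550 genes, 4% of 1.5-fold and 57% of 2-fold changes were recovered, with 6.15% of 65 calls false. The simulation changed only a small share of the genes and set no library apart as DMSO replicate 1 was. Its rates may therefore differ from those in the data. Summaries were made in Python 3.11.15 (pandas 2.3.3, matplotlib 3.10.9, numpy 2.4.6).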

Additional observations from a re-analysis of the deposited data

How the results depend on the processing

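With each library left out in turn, between 0 and 9 of the initiation factor genes rose and between 3 and 18 fell, the upper ends without DMSO replicate 1. The calls for EIF1B, EIF2B2 and EIF3F were kept in all 6 of these fits, though at adjusted p-values up to 0.046, 0.041 and 0.044. Over all genes these fits gave 421 to 3257 higher and 345 to 3203 lower, and in the other translation lists 3 to 40 higher and 3 to 56 lower. Total counts, DESeq2 and the GC content and length offsets each raised the number of initiation factor genes that rose to 5, against 3. The offsets gave 21 higher genes in the other lists, against 12. Lower calls moved to 918 of all genes with total counts, and to 262 and 245 on log2(TPM + 1) and log2(TPM + 0.1), against 1423. The same TPM settings gave 1 and 1 lower initiation factor gene, and 2 and 1 lower genes in the other lists. TPM moved the median of all genes by 0.20 and 0.28 on the log2 scale and total counts by 0.11, against -0.00. Of the 10 calls, DESeq2, its size factors, limma-voom and the offsets kept 10, total counts 9, no filter 8, and the TPM settings 4 and 3.

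Labels give both groups the replicate numbers 1 to 3. With these numbers as a replicate block, 2 initiation factor genes rose and 6 fell, and all genes gave 1139 higher and 1157 lower. Libraries of the same number deviated together with r = 0.17, -0.14 and 0.23 over genes, so the numbers were not treated as pairs; erianin replicates 1 and 2 correlated best with DMSO replicate 1 and erianin replicate 3 with DMSO replicate 2.

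None of the genes that changed sign was called with all 6 libraries. On log2(TPM + 1) and log2(TPM + 0.1) these were EIF2S3 (0.20 and 0.20), EIF2B1 (0.040 and 0.041), EIF2B3 (0.15 and 0.15), EIF2B4 (0.037 and 0.041), EIF2B5 (0.15 and 0.15), EIF2D (0.20 and 0.21), EIF3H (0.23 and 0.23), EIF3L (0.019 and 0.020), EIF3M (0.12 and 0.12), EIF4H (0.20 and 0.20) and EIF1AD (0.068 and 0.071). With total counts, EIF2S3, EIF2D and EIF3H became 0.042, 0.045 and 0.043, and with the offsets EIF3H became 0.0063. Leaving out single libraries turned EIF3E (-0.026 to 0.14), EIF3H (-0.16 to 0.15), EIF3I (-0.012 to 0.12), EIF3K (-0.12 to 0.16), EIF3M (-0.28 to 0.037), EIF4A3 (-0.17 to 0.16), EIF4H (-0.33 to 0.0051), EIF5B (-0.16 to 0.41) and EIF1AD (-0.37 to 0.057), and the ratio differences of EIF5A2 to EIF5A (-0.18 to 0.42) and EIF3CL to EIF3C (-0.018 to 0.22). The cause of these changes was not tested. Genes at about 1 to 5 CPM, such as EIF5A2 and EIF3CL, are limited by depth.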
